A study of Mus musculus with 6 samples.

Results

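The small heat shock proteins were read out as 8 genes matched by symbol: Hspb1, Hspb2, Hspb3, Hspb6, Hspb7, Hspb8, Hspb11 and Cryab. Of these, 7 had a row in both the count table, which lists 22913 genes, and the FPKM table, and all 7 had enough reads to be tested among 12827 genes. Hspb3 was not analysed here. The data are RNA sequencing of HL-1 cells, an immortalised mouse line of atrial cardiomyocyte origin. In the HSPA1A group (3 libraries) the cells were transfected with an overexpression plasmid for human HSPA1A, the inducible HSP70 chaperone. In the control group (3 libraries) they received a control plasmid. Both plasmids were carried by a lipid reagent, and cells of both groups were collected 48 h after transfection. Transfection was therefore transient and in a single cell line. No label tells if replicates were separate cultures, so a p-value here reflects differences among libraries that may be only technical.

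Small heat shock proteins are ATP-independent chaperones built around a conserved alpha-crystallin domain. They assemble into large oligomers, hold unfolding proteins in a soluble state and pass them to the HSP70 system for refolding or, with the cochaperone BAG3, for degradation by autophagy. Heart and skeletal muscle hold several members, which protect desmin, filamin, actin and titin, and mutations in CRYAB or HSPB8 cause myopathies in humans. HSPB11 carries the family name but is also known as IFT25, a subunit of the intraflagellar transport complex that builds cilia. The comparison asked whether transfection with a plasmid for HSP70, the partner that takes over their clients, was accompanied by a change in these genes.

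Heat shock factors bind as trimers to arrays of several alternating inverted GAA units. A single inverted pair of such units, which is less than a full element, could be looked up for 5 of the 7 genes, in 6 windows that run from 250 bases before to 50 bases after an annotated start (RefSeq, GRCm38.p6). Cryab and Hspb2 were not searched. The motifs GAANNTTC and TTCNNGAA, which read the same on both strands, were searched. At least 1 of them is present in 15.1% of all 32851 windows. Only GAANNTTC was found among these genes, with 2 copies in Hspb1 and 1 copy each in Hspb8 and in the downstream of the 2 Hspb6 windows, and it is present in 7.86% of all windows. The windows of Hspb7 and Hspb11 and the upstream Hspb6 window held neither motif. The sequences with a match are shown because 3 of the 4 copies are the same 8 letters. Capitals mark the motif, each sequence runs 5′ to 3′ on the gene's own strand, and positions count from the start as 1.
Hspb1, chr5:135887669-135887918, plus strand, motifs from -117 and -97: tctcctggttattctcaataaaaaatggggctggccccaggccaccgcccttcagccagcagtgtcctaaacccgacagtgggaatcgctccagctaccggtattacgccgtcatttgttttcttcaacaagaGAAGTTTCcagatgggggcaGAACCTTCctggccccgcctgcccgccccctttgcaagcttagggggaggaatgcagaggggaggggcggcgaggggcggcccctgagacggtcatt
Hspb6, chr7:30553051-30553300, plus strand, motif from -120: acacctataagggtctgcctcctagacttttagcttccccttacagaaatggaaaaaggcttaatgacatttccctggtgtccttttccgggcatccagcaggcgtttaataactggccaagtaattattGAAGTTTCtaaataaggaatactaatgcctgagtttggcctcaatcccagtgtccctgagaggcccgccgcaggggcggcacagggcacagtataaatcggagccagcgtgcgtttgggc
Hspb8, chr5:116422844-116422873, minus strand, motif from 3: agaagccaggaGAAGTTTCtaggctcgcga
A match is only a description of letters in the window, and binding was not measured.

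The libraries held 23849656 to 26897086 counts. HSPA1A replicates 1 and 3 stood apart from HSPA1A replicate 2, at 12.8 and 14.9 against -12.8 on the first principal component of log2 CPM, with 38.0% of the variance. The control libraries lay between -6.81 and -3.46, so HSPA1A replicate 2 was nearer to them. The share of counts on the noncoding transcript Yam1 was 2.70%, 1.58% and 2.53% in HSPA1A replicates 1 to 3 and 1.18% to 1.86% in control libraries. Mouse Hspa1a had 17, 20 and 11 reads in HSPA1A libraries and 10, 17 and 11 in control libraries. Reads were assigned to mouse genes, so this count is no check of a human plasmid's transcript.

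The heart muscle identity of the line was partly visible. Of 26 cardiac marker genes, 19 had a row and 8 averaged at least 1 FPKM (reads scaled by gene length and library size). The highest were Des, which encodes desmin, at 188 FPKM, Atp2a2 at 84.3 FPKM, Gja1 at 38.3 FPKM and Tnnt2 at 29.8 FPKM. The sarcomere and calcium-release genes Actc1, Tnni3, Actn2, Myl2, Ttn and Ryr2 averaged between 0.00167 and 0.0467 FPKM, and Myh6, Myl7, Myl3, Mybpc3, Pln, Sln and Nppa were not analysed here. The listed genes Tbx20, Tbx5, Mef2c, Gja5 and Myl4 also averaged below 1 FPKM, at 0.00833, 0.03, 0.178, 0.74 and 0.883 FPKM. Gata4, Tnnc1, Nppb and Nkx2-5 averaged 8.28, 5.12, 5.03 and 2.19 FPKM. The cardiac markers summed to 321 to 367 FPKM in HSPA1A libraries and 375 to 384 FPKM in control libraries. Most of this sum came from Des and Atp2a2. Over all genes, log2 fold changes of HSPA1A over control were lower on FPKM than on scaled counts, with a median shift of -0.0555 to -0.0583. Fibroblast markers, with 4 of 8 at 1 FPKM or more, summed to 132 to 162 FPKM in HSPA1A libraries and 152 to 155 FPKM in control libraries, led by Col3a1. Smooth muscle markers (2 of 6 at that level) summed to 37.2 to 55.1 FPKM in HSPA1A and 46.8 to 51.1 FPKM in control libraries. Skeletal muscle markers (2 of 6) summed to 3.11 to 4.39 FPKM in HSPA1A and 4.14 to 5.02 FPKM in control libraries, and immune markers (1 of 4, Cd68) to 2.93 to 5.39 FPKM in HSPA1A and 2.33 to 3.99 FPKM in control libraries. Endothelial markers were near 0, with sums of 0.0800 to 0.150 FPKM in HSPA1A and 0.0700 to 0.130 FPKM in control libraries. The part of these differences in the results below was not tested, and fewer cells of a type and less RNA per cell cannot be told apart in such bulk samples.

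The family was dominated by Hspb1 and Cryab, the classic stress-inducible members. Hspb1 encodes HSP25, the mouse form of human HSP27, which caps actin filaments and is phosphorylated through the p38 pathway. It lies on chromosome 5 (ENSMUSG00000004951.10, 135887919 to 135889563, plus strand, GRCm38) and stood at 384 ± 40.9 FPKM in HSPA1A cells and 415 ± 3.47 FPKM in control cells (SD, n = 3 each). By mean FPKM it ranked 178 among all genes with an FPKM value. Cryab encodes alpha-B-crystallin, the chaperone of desmin filaments (ENSMUSG00000032060.9, chromosome 9, 50751325 to 50756636, plus strand), and stood at 139.8 ± 19.2 FPKM in HSPA1A and 149 ± 2.65 FPKM in control cells. Together they made up most of the family's summed FPKM. Hspb1 contributed 61.0 ± 0.379% in HSPA1A and 61.6 ± 0.361% in control libraries, and Cryab contributed 22.1 ± 0.764% in HSPA1A and 22.2 ± 0.346% in control libraries.

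The middle of the order was held by Hspb8, Hspb11 and Hspb6. Hspb8, whose product HSP22 pairs with BAG3 in the removal of damaged filamin (ENSMUSG00000041548.4, chromosome 5, 116408491 to 116422864, minus strand), was at 38.2 ± 4.45 FPKM in HSPA1A and 41.3 ± 0.575 FPKM in control cells. Hspb11 (ENSMUSG00000063172.11, chromosome 4, 107253593 to 107279938, plus strand) was at 39.2 ± 3.78 FPKM in HSPA1A and 38.4 ± 1.20 FPKM in control cells. On the FPKM scale Hspb8 and Hspb11 did not differ beyond their spread: Hspb8 was the higher one in 5 of 6 libraries and their ranges overlapped. Hspb6, which encodes HSP20, a target of protein kinase A in muscle (ENSMUSG00000036854.12, chromosome 7, 30552178 to 30555443, plus strand), was at 23.8 ± 2.14 FPKM in HSPA1A and 24.5 ± 1.00 FPKM in control cells. Every other pair of neighbours in the order kept its order in 6 of 6 libraries, with ranges that did not overlap. The place of Hspb11 beside Hspb8 and above Hspb6 rests on gene length. The deposited values imply a length of 688 bases for Hspb11, while its annotated exons cover 2071 bases, and per kilobase of annotated exon Hspb8 stood at 39.9 CPM (counts scaled to an equal library size), Hspb11 at 12.9 CPM and Hspb6 at 15.4 CPM. On that scale Hspb11 was thus well below Hspb8 and also below Hspb6.

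The muscle-restricted members were low. Hspb2, whose product binds the myotonic dystrophy kinase DMPK (ENSMUSG00000038086.3, chromosome 9, 50751078 to 50752354, minus strand), was at 5.01 ± 1.10 FPKM in HSPA1A and 4.50 ± 0.194 FPKM in control cells. Hspb7, a heart-enriched member that binds filamin C (ENSMUSG00000006221.7, chromosome 4, 141420779 to 141425311, plus strand), was at 0.347 ± 0.188 FPKM in HSPA1A and 0.430 ± 0.0300 FPKM in control cells, on 13 to 44 reads a library. Of the alpha-crystallin genes outside the list, the lens gene Cryaa had 1 read over the 6 libraries, in HSPA1A replicate 2, while Hspb9 and Odf1 were not analysed here.

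**Figure D1:**
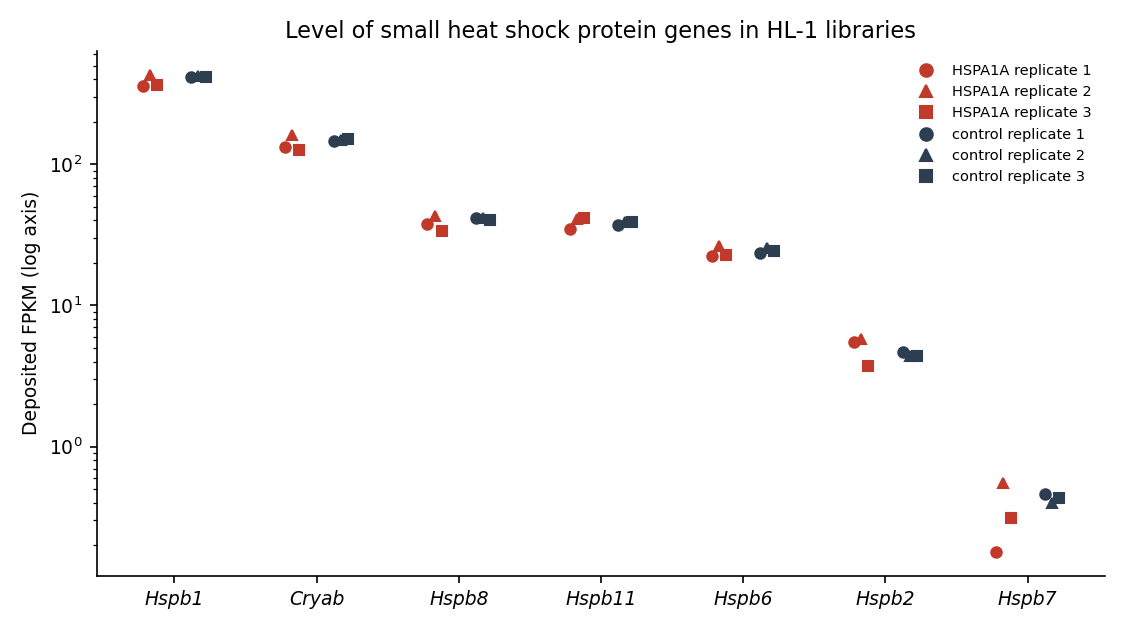
Deposited FPKM (log axis) of the 7 small heat shock protein genes in each library, with the HSPA1A libraries (red) left of the control libraries (dark) and a marker shape per replicate number. Hspb1 and Cryab lie at the top, Hspb8 and Hspb11 overlap on this scale, and Hspb7 lies below 1 FPKM in all 6 libraries.

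Some of these levels depend on how reads were shared between genes. Hspb2 and Cryab lie head to head: in 3 of the GENCODE M21 transcripts Cryab starts 553 to 666 bases beyond the Hspb2 start, on the other strand, and a longer Cryab transcript runs through Hspb2, so that their exons overlap by 252 bases. The library kit keeps strand per the labels, but whether counting used it was not given in the sources used here, so the low Hspb2 level is uncertain. The Cryab level was 23.87, 28.02 and 33.74 times that of Hspb2 (FPKM) in HSPA1A replicates 1 to 3 and 31.1, 34.14 and 34.57 times in control replicates 1 to 3. For Hspb1, 46.4% of all 75-base runs in its transcripts also stand in the pseudogene Hsp25-ps1 on chromosome 13. That pseudogene was listed with 63, 79 and 69 reads in HSPA1A libraries and 68, 105 and 67 reads in control libraries, against at least 9658 reads on Hspb1 in every library. Of the Hspb6 runs, 2.10% are shared with Proser3 on the opposite strand, and 2.54% of the Hspb11 runs are shared with other genes. No run of Cryab, Hspb2, Hspb7 or Hspb8 was found in a gene outside the family.

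None of the 7 genes differed between HSPA1A and control cells in the quasi-likelihood test of edgeR, adjusted by Benjamini-Hochberg over all 12827 tested genes, which called 0.179% of them at an adjusted p under 0.05 (0.0234% higher, 0.156% lower). At an unadjusted p under 0.05 the count was 0 of 7, where 8.59% of all tested genes passed, and DESeq2 and limma-voom also called 0 of 7, with 0.443% and 0.164% of all genes called. The median log2 fold change of the 7 genes was -0.041, with 3 positive values, beside 0.0029 over all tested genes. In no gene were the HSPA1A and control libraries free of overlap, while 14.5% of all tested genes had no overlap.

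For the abundant stress-inducible members the intervals were narrower than for Hspb2 and Hspb7. They rest on a spread shared by both groups, while the HSPA1A libraries varied more, so they are no firm bound on a change. Hspb1 had 412, 474 and 420.2 CPM in HSPA1A replicates 1 to 3, against 455, 452 and 449 CPM in control replicates 1 to 3 (CPM scaled by TMM, edgeR's correction for library composition). HSPA1A replicate 2 was above every control library, and HSPA1A replicates 1 and 3 were below every control library. The log2 fold change came to -0.053 ± 0.061 (SE), with a 95% interval of 0.878 to 1.06 for the fold change and an adjusted p of 0.838 (edgeR). Cryab followed the same order, with 174, 204 and 168 CPM in HSPA1A replicates 1 to 3, against 186, 185 and 190.2 CPM in control replicates 1 to 3. Its log2 fold change was -0.041 ± 0.072, with a 95% interval of 0.871 to 1.09 for the fold change and an adjusted p of 0.901 (edgeR).

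The partner of BAG3, Hspb8, had 76.7, 82.9 and 69.1 CPM in HSPA1A replicates 1 to 3, against 80.7, 79.3 and 77.8 CPM in control replicates 1 to 3. HSPA1A replicate 2 was again the highest of the 6 libraries and the other 2 HSPA1A libraries the lowest. The log2 fold change came to -0.056 ± 0.067, with a 95% interval of 0.868 to 1.07 for the fold change and an adjusted p of 0.846 (edgeR). Hspb6 had 34.0, 38.1 and 34.9 CPM in HSPA1A replicates 1 to 3, against 34.4, 36.5 and 34.8 CPM in control replicates 1 to 3, so the groups overlapped. Its log2 fold change was 0.018 ± 0.063, with a 95% interval of 0.920 to 1.11 for the fold change and an adjusted p of 0.948 (edgeR). On library totals alone this value was -0.017, and the median over all genes moved by -0.0355 under that scaling.

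Hspb11, the intraflagellar transport subunit, was ordered differently. It had 24.9, 27.95 and 30.01 CPM in HSPA1A replicates 1 to 3, against 25.4, 26.2 and 26.5 CPM in control replicates 1 to 3. HSPA1A replicate 1 was the lowest of the 6 libraries and HSPA1A replicates 2 and 3 the highest. The log2 fold change came to 0.089 ± 0.075, with a 95% interval of 0.948 to 1.19 for the fold change and an adjusted p of 0.789 (edgeR). Without HSPA1A replicate 1 it was 0.16, and without HSPA1A replicate 3 it was 0.028, neither called.

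For the low muscle-restricted members the intervals were wide. Hspb2 had 5.17, 5.17 and 3.52 CPM in HSPA1A replicates 1 to 3, against 4.24, 3.85 and 3.90 CPM in control replicates 1 to 3. HSPA1A replicates 1 and 2 were above and HSPA1A replicate 3 below every control library. The log2 fold change came to 0.21 ± 0.17, with a 95% interval of 0.895 to 1.49 for the fold change and an adjusted p of 0.771 (edgeR), and it was 0.37 without HSPA1A replicate 3, where the call was still missed (adjusted p = 0.801, edgeR). Hspb7 had 13, 44 and 23 reads, or 0.555, 1.62 and 0.952 CPM, in HSPA1A replicates 1 to 3, against 36, 29 and 33 reads, or 1.35, 1.16 and 1.25 CPM, in control replicates 1 to 3. Its log2 fold change of -0.24 ± 0.33 had a 95% interval of 0.506 to 1.41 for the fold change and an adjusted p of 0.869 (edgeR). These libraries do not tell apart changes of Hspb7 within those bounds. Its coefficient of variation (CPM) was 51.8% in HSPA1A and 7.55% in control cells. The part of counting noise in that spread was not tested.

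**Figure D2:**
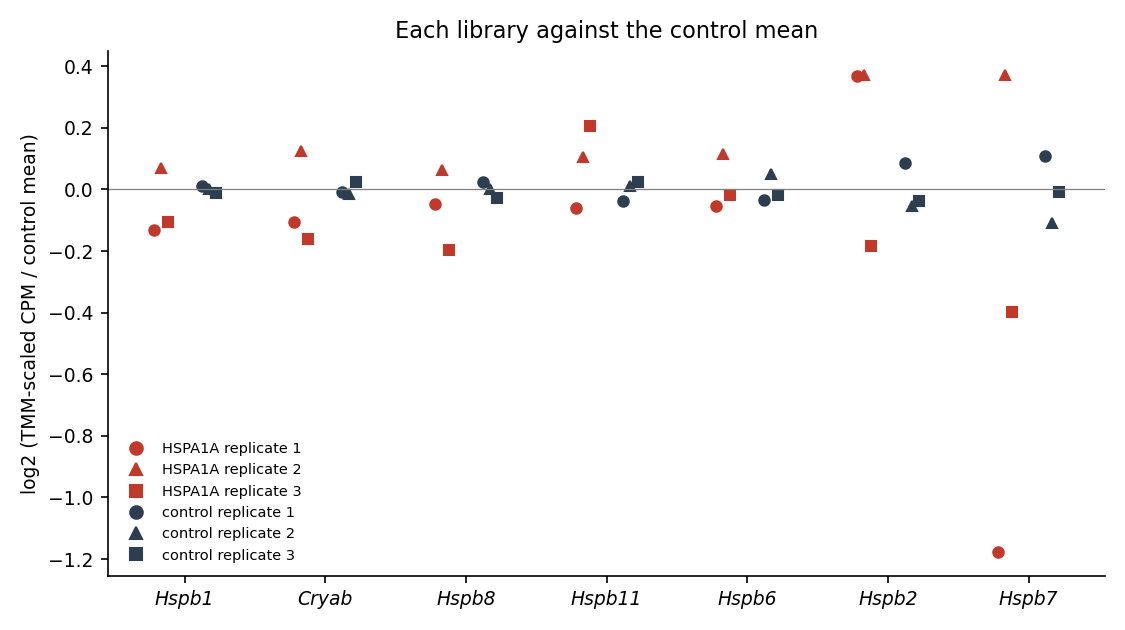
TMM-scaled CPM of each gene in each library, as log2 of the ratio to the mean of the 3 control libraries, with HSPA1A libraries in red left of control libraries in dark. The control libraries lie close to 0, and HSPA1A replicate 2 (triangle) lies above HSPA1A replicates 1 and 3 in every gene except Hspb11, narrowly so over replicate 1 in Hspb2.

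The HSPA1A libraries varied more among themselves than the control libraries did, a pattern described after the values had been seen. In 7 of 7 genes the 3 HSPA1A libraries spanned a wider range than the 3 control libraries, as they did in 69.2% of all tested genes. The coefficient of variation of Hspb1 was 7.75% in HSPA1A and 0.752% in control libraries, and that of Cryab was 10.8% in HSPA1A and 1.41% in control libraries (CPM). With 3 libraries a group such coefficients are themselves imprecise, and the part of counting noise in them was not tested. HSPA1A replicate 2 was the highest of all 6 libraries in 6 of 7 genes, Hspb11 being the exception, and in 22.3% of all tested genes. In Hspb1, Cryab, Hspb8 and Hspb7, HSPA1A replicates 1 and 3 were below every control library while HSPA1A replicate 2 was above every control library. This order was seen in 7.17% of all tested genes. The summed FPKM of the 7 genes was 590.0, 710.0 and 592 in HSPA1A replicates 1 to 3 and 667, 679 and 673 in control replicates 1 to 3. The shares of Yam1 differed between the same libraries, and the part of Yam1 or of HSPA1A replicate 2 in these orders was not tested.

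Without HSPA1A replicate 2, edgeR called 10.2% of the 12955 genes tested in that fit, and 0 of the 7 small heat shock protein genes. At an unadjusted p under 0.05 there were 4 of 7, where 24.8% of all genes passed. These 4 are the genes in which HSPA1A replicate 2 alone of its group lay above the control libraries. Leaving it out could only lower their HSPA1A values, so this count is no separate support for a change. In that fit Cryab had a log2 fold change of -0.13 (adjusted p = 0.0745, edgeR), Hspb1 of -0.12 (adjusted p = 0.0986, edgeR), Hspb8 of -0.12 (adjusted p = 0.180, edgeR) and Hspb7 of -0.73 (adjusted p = 0.164, edgeR). Hspb6 was then at -0.032, Hspb11 at 0.083 and Hspb2 at 0.12. With all 6 libraries Hspb1 was at -0.053, Cryab at -0.041, Hspb8 at -0.056 and Hspb7 at -0.24, all smaller in size. No call was gained by leaving HSPA1A replicate 2 out.

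**Figure D3:**
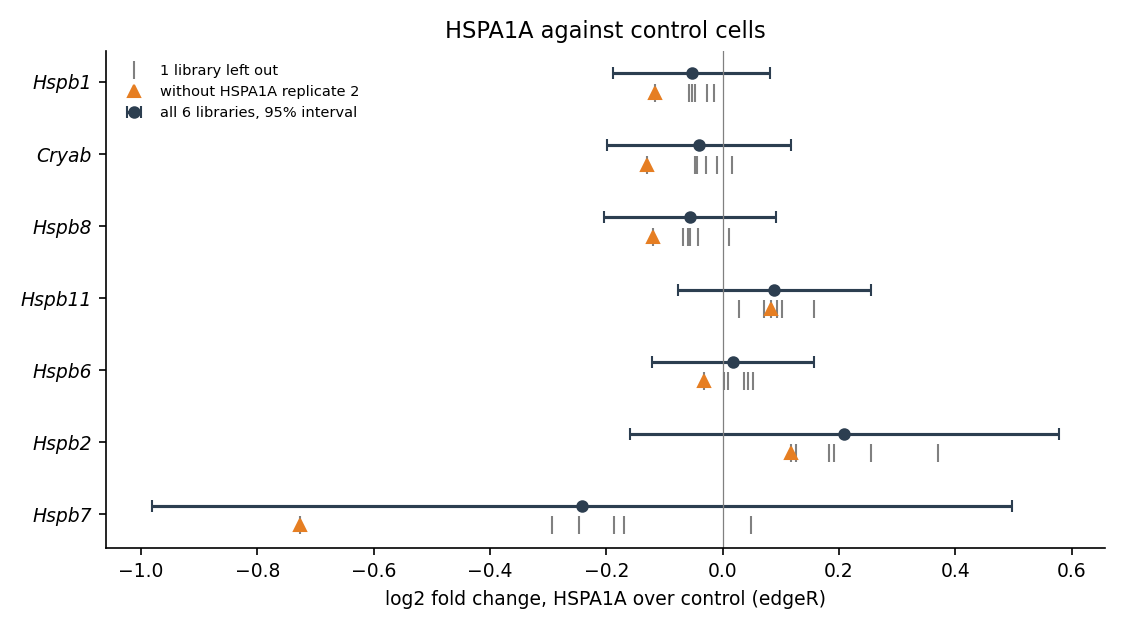
Log2 fold change of HSPA1A over control cells for each gene, with its 95% interval from all 6 libraries (circles with bars), each value with 1 library left out (grey ticks) and the value without HSPA1A replicate 2 (triangles). All 7 intervals include 0, and Hspb7 and Hspb2 have the widest ones.

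Some genes had a profile over the 6 libraries very close to that of an abundant member, measured as the root mean square difference of log2 CPM after centring each profile on its own mean. The 9322 genes compared had at least 5 CPM and lay outside the family. Clone-named genes (Gm, AC, AL and Rik names) were left out. Among the compared genes, the nearest to Hspb1 were Ift140, Hmgxb3 and Setd3, at 0.0104 to 0.0107. The nearest to Cryab were Plod3, Tacc2 and Vamp8, at 0.0137 to 0.0161, and the nearest to Hspb8 were Aaas, Nfil3 and Vars2, at 0.0153 to 0.0191. Within the family, Hspb1 and Cryab differed by 0.0375, and 1.83% of the other genes lay closer to Hspb1 than Cryab did. Hspb11 was 0.114 from Hspb1, and 53.7% of genes were closer. Hspb2 was 0.192 from its neighbour Cryab, and 88.4% of genes were closer. Hspb2 averaged 4.31 CPM, below the 5 CPM asked of the compared genes, and the part of its low count in this distance was not tested.

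In a list of HSP70 family, cochaperone and BAG3 path genes, no gene was called either. By edgeR 0 of 16 were higher and 0 of 16 lower (0.0234% and 0.156% of all genes), and by DESeq2 0 were called (0.443% of all genes). At an unadjusted p under 0.05 there was 1 (8.59% of all genes). The log2 fold changes of the 16 genes ran from -0.10 to 0.13, with a median of 0.0082. Bag3, the cochaperone that ties HSPB8 to HSP70, had 78.6 ± 9.36 CPM in HSPA1A cells and 80.3 ± 2.96 CPM in control cells, with a log2 fold change of -0.029 (adjusted p = 0.935, edgeR). Bag3 was at 76.9, 88.7 and 70.2 CPM in HSPA1A replicates 1 to 3 and at 78.5, 78.6 and 83.7 CPM in control replicates 1 to 3. HSPA1A replicate 2 was the highest library here too. The constitutive HSP70 gene Hspa8 was at 433, 584 and 426 CPM in HSPA1A cells and 526, 518 and 504 CPM in control replicates 1 to 3. It was not called with all libraries (log2 fold change -0.10, adjusted p = 0.822, edgeR), and without HSPA1A replicate 2 it was the 1 list member called, and it was lower there (log2 fold change -0.26, adjusted p = 0.00186, edgeR), as were 4.94% of all genes. The genes with the smallest p in the list were Dnajb4, an HSP40 cochaperone, at 89.5 ± 4.30 CPM in HSPA1A cells and 82.0 ± 0.809 CPM in control cells, and Bag1, at 191 ± 10.4 CPM in HSPA1A cells and 179 ± 4.64 CPM in control cells.

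Among client and cytoskeletal partners 0 of 15 tested genes were called by edgeR and 0 by DESeq2, where 0.179% and 0.443% of all genes were. At an unadjusted p under 0.05 there were 4 of 15, beside 8.59% of all genes. The median log2 fold change was -0.092, and 1 of 15 values was positive, against 6544 of 12827 over all genes. That value belonged to Flnc, which encodes filamin C, the client of HSPB7 and of the BAG3 and HSPB8 pair, at 691 ± 53.9 CPM in HSPA1A cells and 624 ± 20.6 CPM in control cells (adjusted p = 0.568, edgeR). Des was at 583 ± 19.9 CPM in HSPA1A cells and 645 ± 16.8 CPM in control cells, with a log2 fold change of -0.14 (adjusted p = 0.510, edgeR), and the groups did not overlap, at 605, 579 and 565 CPM in HSPA1A replicates 1 to 3 against 625, 653 and 655 CPM in control replicates 1 to 3. Such a lack of overlap was found in 14.5% of all tested genes. Dmpk, the kinase bound by HSPB2, was at 26.0 ± 7.07 CPM in HSPA1A cells and 35.8 ± 2.28 CPM in control cells (log2 fold change -0.46, adjusted p = 0.474, edgeR). Without HSPA1A replicate 2, Flnc was called higher (log2 fold change 0.20), and Dmpk, Flna, Tuba1a and Tubb5 were called lower (-0.69, -0.19, -0.20 and -0.25). That fit called 5.27% of all genes higher and 4.94% lower. Csrp3, Krt8, Krt18, Actc1 and Actn2 had too few reads to be tested.

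The kinases and phosphatases that act on HSPB1 and CRYAB had 0 of 17 tested genes called by edgeR or DESeq2 (0.179% and 0.443% of all genes) and 1 at an unadjusted p under 0.05 (8.59% of all genes), with a median log2 fold change of -0.024. The p38 kinase genes Mapk11 and Mapk12 had the smallest p-values. Mapk11 was at 19.1 ± 3.14 CPM in HSPA1A cells and 23.5 ± 1.19 CPM in control cells (adjusted p = 0.517, edgeR), and Mapk12 at 18.5 ± 1.26 CPM in HSPA1A cells and 21.1 ± 2.05 CPM in control cells (adjusted p = 0.595, edgeR). Mapkapk2, the kinase that phosphorylates HSPB1 directly, had a log2 fold change of -0.074 (adjusted p = 0.728, edgeR) and was named after its value was seen. Without HSPA1A replicate 2, Mapkapk5 and Ppp2ca were called higher and Mapk11 and Prkca lower, 4 of 17 genes in a fit that called 10.2% of all genes.

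Of the heat shock factor genes Hsf1, Hsf2 and Hsf4 and the genes of the factor-binding proteins Hsf2bp and Hsbp1, 0 of 5 were called by edgeR or DESeq2 (0.179% and 0.443% of all genes). Hsf1, Hsf2 and Hsbp1, 3 of the 5, reached an unadjusted p under 0.05, where 8.59% of all genes did. The median log2 fold change of the 5 genes was 0.13. Hsf1, the main activator of small heat shock protein genes under stress, was at 71.0, 68.1 and 65.1 CPM in HSPA1A replicates 1 to 3, against 75.7, 77.3 and 77.7 CPM in control replicates 1 to 3, so the groups did not overlap (log2 fold change -0.18, adjusted p = 0.426, edgeR). Hsf2 was at 52.2, 47.0 and 52.5 CPM in HSPA1A replicates 1 to 3, against 46.2, 43.0 and 44.5 CPM in control replicates 1 to 3, and its groups did not overlap either (log2 fold change 0.18, adjusted p = 0.479, edgeR), where 14.5% of all tested genes had no overlap. Without HSPA1A replicate 2, Hsf1 was called lower (adjusted p = 0.0430, edgeR) and Hsf2 higher (adjusted p = 0.0129, edgeR), in a fit that called 4.94% of all genes lower and 5.27% higher.

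The intraflagellar transport genes, the partners of HSPB11, had 0 of 16 tested genes called by edgeR or DESeq2 (0.179% and 0.443% of all genes) and 0 at an unadjusted p under 0.05 (8.59% of all genes), with a median log2 fold change of 0.0080. Ift27, the small GTPase that binds HSPB11, was at 14.3 ± 2.12 CPM in HSPA1A cells and 15.2 ± 0.201 CPM in control cells (log2 fold change -0.089, adjusted p = 0.845, edgeR). HSPA1A replicate 3, where Hspb11 was highest, had the lowest Ift27 value. Ttc30b and Traf3ip1 had the smallest p-values, with log2 fold changes of 0.29 and -0.18. Without HSPA1A replicate 2, Cluap1 was called higher (log2 fold change 0.21, adjusted p = 0.0368, edgeR), as were 5.27% of all genes.

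**Figure D4:**
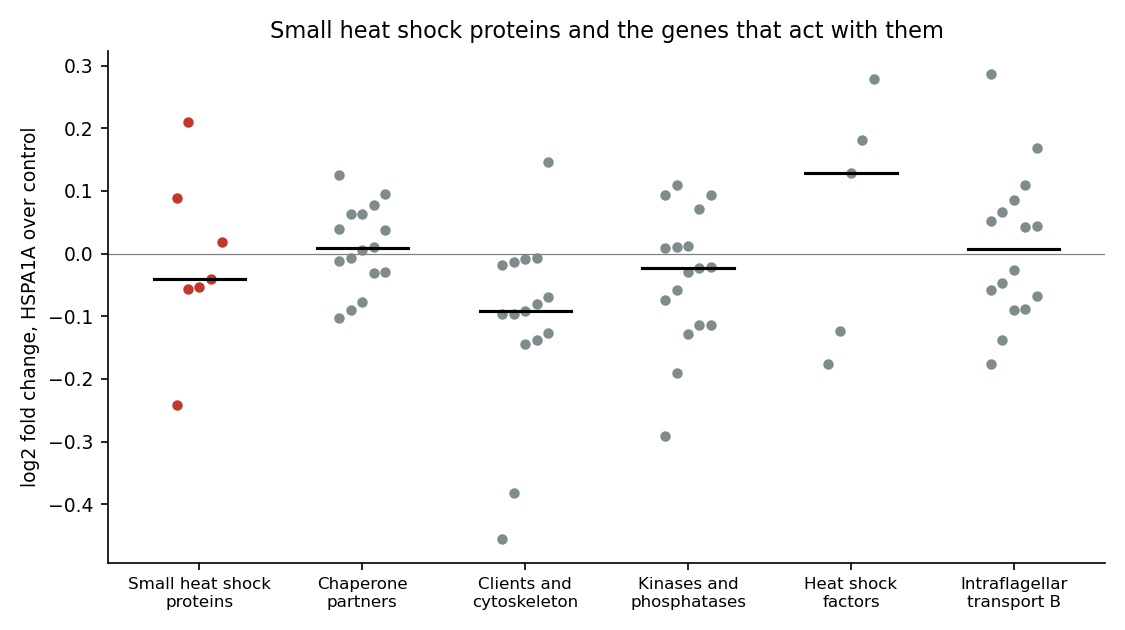
Log2 fold change of HSPA1A over control cells (edgeR, all 6 libraries) for the tested genes of each list, 1 point a gene, with the list median as a bar. The small heat shock protein genes (red) run from -0.24 to 0.21, and the median of the client and cytoskeletal genes lies at -0.092.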

How the data were processed

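Polyadenylated RNA was sequenced from 6 HL-1 samples, and groups and replicate numbers came from the labels. The authors deposited whole read counts for 22913 genes and FPKM for 22833 genes, the FPKM rounded to 2 decimals. Per the submitters' processing notes the build was GRCm38 and bcl2fastq, TopHat2 and edgeR were used. The counter, its strand setting and the annotation were not given in the sources used here. Gene coordinates came from GENCODE M21 (GRCm38), in which 22729 identifiers matched after version numbers were dropped.

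Counts were filtered with filterByExpr (minimum count 10, minimum total 15), scaled by TMM and compared without covariates by edgeR 4.0.16 (glmQLFit and glmQLFTest) under R 4.3.3, with Benjamini-Hochberg adjustment over 12827 genes and a threshold of 0.05. Standard errors and intervals were derived from the quasi-likelihood F. The fit was tested on simulated data in which 200 genes were changed 1.5-fold, and it recovered 77.5% of them and called 0.0554% of the unchanged genes. In the simulated data no library stood apart from its group as HSPA1A replicate 2 did. DESeq2 1.42.0 and limma 3.58.1 gave alternatives, and figures used matplotlib 3.10.9. The members and gene lists were chosen with earlier results of these data known. Named beyond the 7 members were the 2 genes of each list with the smallest p, Bag3, Ift27, Hsf1, Des and Flnc, and the 3 nearest profiles to each of the 3 most abundant members. Genes called without HSPA1A replicate 2 and the cell type marker genes were named with their values in view.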

Additional observations from a re-analysis of the deposited data

How the results depend on the processing

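No small heat shock protein gene was called under any of the 16 alternatives that tested it (15 for Hspb2 and 14 for Hspb7): other size factors, library totals, no filter or a filter of 5 CPM (which removed Hspb2 and Hspb7), the replicate number as a block, DESeq2, limma-voom, limma-trend on FPKM (Hspb7 was not in the fit on a mean of at least 1 FPKM), or each library left out. Signs turned for Hspb6 on library totals (-0.0171) and in the 3 FPKM fits (-0.0406, -0.0422 and -0.0422). The median over all genes moved by -0.0355 on library totals and by -0.0555 to -0.0583 in the FPKM fits, so these turns went with a shift of all genes. With 1 library left out, values ran from -0.0317 (without HSPA1A replicate 2) to 0.0516 for Hspb6, from -0.130 to 0.0166 (without HSPA1A replicate 3) for Cryab, from -0.119 to 0.0114 (without HSPA1A replicate 3) for Hspb8 and from -0.727 to 0.0492 (without HSPA1A replicate 1) for Hspb7. The ratio of Hspb11 to Hspb6 per length was 1.61 in FPKM and 0.84 per kilobase of annotated exon. Of all genes, 23 were called, against 205 with no filter, 68 by DESeq2, 15, 15 and 14 in the FPKM fits with pseudocounts of 1 and 0.1 and with a mean of at least 1 FPKM, and 10 to 1323 with 1 library left out. The highest of these was without HSPA1A replicate 2. Same-numbered libraries did not deviate together (correlations of -0.139, -0.0328 and 0.0972 for replicates 1 to 3). With 3 libraries a group this cannot tell whether the numbers pair the samples. With the replicate block 16 genes and 0 members were called. Hspb7 and Hspb2, the members with the fewest reads, have the widest intervals, and their coefficients of variation (CPM) were 51.8% and 20.6% in HSPA1A and 7.55% and 5.38% in control libraries. The part of counting noise in these coefficients was not tested.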
